A study of Homo sapiens with 6 samples.

Results

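The transcripts described here are those of human mitochondrial DNA (mtDNA). They are the 37 genes whose symbol starts with MT- in the deposited table of 61806 genes, all placed on the mitochondrial chromosome of GRCh38. They comprise 13 protein-coding genes, 2 ribosomal RNA (rRNA) genes and 22 transfer RNA (tRNA) genes, of which 28 lie on the plus strand and 9 on the minus strand. The libraries hold poly(A)-selected RNA of HEK293, a line derived from human embryonic kidney cells transformed with adenovirus DNA. There were 3 libraries from rs16851030-mutant cells, made by CRISPR homology-directed repair, and 3 from wild-type cells. Both groups are HEK293 and were kept in the same medium per the labels, which call the libraries biological replicates. The labels do not say whether the mutant cells are 1 clone, several clones or a pool, so differences between the groups may include differences between clones, and p-values measure the spread between these libraries. The table gives RNA counts per gene and no allele, so the genotype labels could not be checked in it.

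Human mtDNA is a compact circle that is transcribed from both strands into long precursor RNAs. In the mitochondrion these are cut apart, mostly at the tRNAs that lie between the other genes, and most of the released mRNAs receive short poly(A) tails. The proteins they encode are core subunits of respiratory complexes I, III and IV and of ATP synthase, and the rRNAs and tRNAs serve the mitochondrial ribosome that makes those proteins. All proteins that copy, transcribe, process and translate mtDNA come from nuclear genes.

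Depth was 16013460 to 20349609 counts assigned to genes per library. Of the line's markers, VIM stood at 86.1 to 166 FPKM (a level scaled by gene length and library size), and PAX2 was low, at 0.04 to 0.27 FPKM. UMOD, HBB and CD3E, markers of adult tubule and blood, had 0 counts in all 6 libraries, and SLC12A1 and PTPRC had 0 or 1 count in each. A gene was tested when its mean FPKM over the 6 libraries was at least 1, which left 12550 genes. It was called at an adjusted p below 0.05 in edgeR's quasi-likelihood test.

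RNA of mtDNA took a smaller part of the mutant libraries. The 37 genes held 1.28, 1.51 and 1.58% of the assigned counts in the mutant libraries, against 1.98, 2.33 and 1.91% in the wild-type libraries. The mutant shares all lay below the wild-type shares, and the ratio of the group means was 0.704. A two-sided exact permutation test gave p = 0.1, the smallest that 3 against 3 libraries can give (0.4 after Benjamini-Hochberg adjustment over the 12 shares and ratios compared here). Mutant replicate 1 had both the lowest share and the deepest library, and the part of depth was not tested. These are bulk libraries, in which fewer cells with a given level and less RNA per cell cannot be told apart, and the number of mtDNA copies was not measured here. The share is of RNA captured by poly(A) selection, so a difference in capture and a difference in amount cannot be told apart either.

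Of the 37 genes, 16 passed the expression minimum: all 13 protein-coding genes, both rRNA genes and 1 of the 22 tRNA genes. All 16 tested genes were called lower in the mutant. Of all tested genes 58% were called, 28.7% lower and 29.4% higher. Their median log2 fold change (mutant minus wild type) was -0.61, beside -7.1e-04 for all tested genes. For 14 of the 16 the 3 mutant FPKM values lay entirely below the 3 wild-type values, a pattern found for 28.1% of all tested genes, while 34.8% had all mutant values above all wild-type values. The exceptions were MT-RNR1 and MT-CO3. The size of the fall differed widely among the coding genes, and the mutant level ran from 0.427 to 0.812 of the wild-type level.

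**Figure D1:**
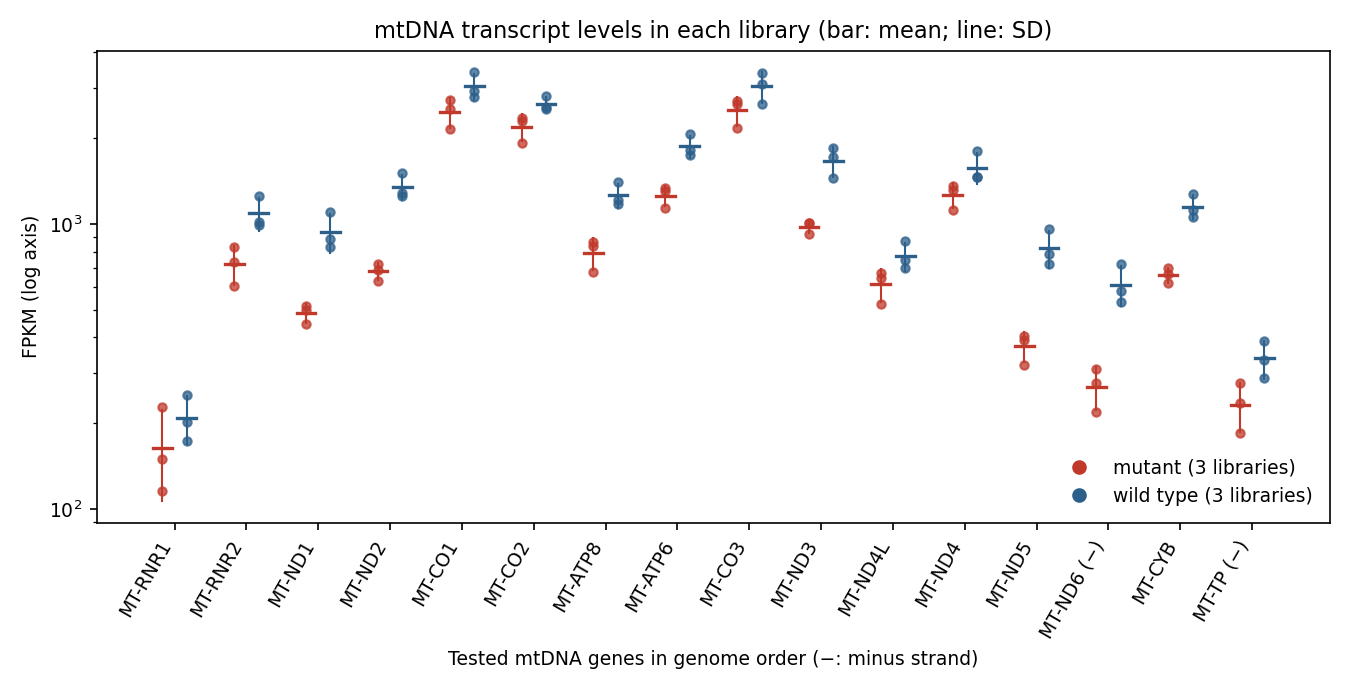
FPKM on a log axis for the 16 tested mtDNA genes in genome order, with mutant libraries to the left of wild-type libraries (points: libraries, bars: means, lines: SD, n = 3 each). The MT-CO genes stand highest in both groups, and the gap between the groups is widest at MT-ND5 and MT-ND6.

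These are among the most abundant transcripts of the cells. Ranked by mean FPKM, 5 of the 10 highest genes of the mutant and 8 of the 10 highest of the wild type were mtDNA genes. MT-CO3 ranked 1 in the mutant, against 2 in the wild type, and MT-CO1 ranked 2 in the mutant, against 1 in the wild type. MT-ND6 stood lower, at rank 88 in the mutant and rank 29 in the wild type, and MT-ND5 at rank 51 in the mutant and rank 22 in the wild type.

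The 3′ ends of the coding genes are shown as the last 15 bases of each GENCODE release 29 transcript, whose coordinates match the table for all 37 genes. They are ends of annotated genes. The ends at which the RNA carries a tail were not measured, and MT-ATP8 and MT-ND4L end inside mRNAs shared with the next gene. Capitals mark the stop codon or, for 6 of the 13 genes, the 1 or 2 bases of it that the annotated transcript holds. In these 6 the poly(A) tail supplies the remaining A residues of the stop codon. In the other 7 the annotated transcript holds the full stop. The last base of the MT-ATP6 stop is also the first base of MT-CO3. The 2 mRNAs cannot both hold it when cut from the same precursor, so the grouping is that of the annotation only. AGA and AGG act as stops in human mitochondria.
MT-ND1: tccccctcaaaccTA
MT-ND2: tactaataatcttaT
MT-CO1: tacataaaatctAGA
MT-CO2: gtatttaccctaTAG
MT-ATP8: cccccacaatccTAG
MT-ATP6: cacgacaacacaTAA
MT-CO3: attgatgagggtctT
MT-ND3: tagactgaaccgaaT
MT-ND4L: ctactccaatgcTAA
MT-ND4: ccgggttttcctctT
MT-ND5: ctcctaatcacaTAA
MT-ND6: gctcgggggaatAGG
MT-CYB: tactcaaatgggccT
The log2 fold changes of the 6 genes annotated without a full stop ran from -1.02 to -0.31, with a median of -0.82. Those of the 7 annotated with a full stop ran from -1.23 to -0.30, with a median of -0.61, so the ranges overlapped widely.

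Complex I, the NADH dehydrogenase that feeds electrons into the chain, has 7 subunits encoded in mtDNA, and its mRNAs fell by unequal amounts. MT-ND5 (GRCh38 mitochondrial positions 12337 to 14148, plus strand) encodes one of the proton-pumping membrane subunits. Its level was 321, 393 and 406 FPKM in the mutant libraries, against 787, 963 and 726 FPKM in the wild-type libraries, with every mutant value below every wild-type value. The log2 fold change was -1.18 (SE 0.09, edgeR adjusted p = 4.16e-09). MT-ND1 (positions 3307 to 4262), a subunit of the quinone-binding region, had 446, 498 and 516 FPKM in the mutant, against 829, 1104 and 882 FPKM in the wild type. MT-ND2 (positions 4470 to 5511), another pumping subunit, had 632, 691 and 721 FPKM in the mutant, against 1253, 1509 and 1284 FPKM in the wild type. Both fell to about the same degree, with log2 fold changes of -0.98 (SE 0.08) and -1.02 (SE 0.06) and no overlap between the groups. MT-ND3 (positions 10059 to 10404), a small membrane subunit, fell less, by 0.80 (SE 0.07), with 921, 1011 and 1005 FPKM in the mutant, against 1711, 1841 and 1445 FPKM in the wild type.

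The remaining plus-strand mRNAs of complex I had smaller log2 fold changes. MT-ND4L and MT-ND4 are read from a single bicistronic mRNA in which the reading frames overlap by 7 bases. MT-ND4 (positions 10760 to 12137) had 1117, 1314 and 1362 FPKM in the mutant, against 1467, 1803 and 1459 FPKM in the wild type. MT-ND4L (positions 10470 to 10766) had 522, 673 and 645 FPKM in the mutant, against 701, 870 and 748 FPKM in the wild type. Their log2 fold changes were -0.35 (SE 0.07) for MT-ND4 and -0.37 (SE 0.08) for MT-ND4L, both called, and the groups did not overlap. The counts of MT-ND4L as a percent of those of MT-ND4 were 10.1, 11.04 and 10.2% in the mutant, against 10.3, 10.4 and 11.05% in the wild type, and the groups overlapped (exact permutation p = 0.5).

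Complex IV, cytochrome c oxidase, passes electrons to oxygen, and its 3 mtDNA subunits form the catalytic core. Their mRNAs were the most abundant and fell least. MT-CO1 (positions 5904 to 7445), which holds the oxygen-reducing centre, had 2155, 2527 and 2725 FPKM in the mutant, against 2939, 3406 and 2779 FPKM in the wild type. MT-CO2 (positions 7586 to 8269), which takes electrons from cytochrome c, had 1923, 2352 and 2306 FPKM in the mutant, against 2569, 2823 and 2527 FPKM in the wild type. The 2 genes had log2 fold changes of -0.33 (SE 0.07, edgeR adjusted p = 8.01e-04) and -0.30 (SE 0.06, adjusted p = 4.81e-04), and the highest mutant value of each lay below the lowest wild-type value. MT-CO3 (positions 9207 to 9990), the third core subunit, had 2171, 2629 and 2710 FPKM in the mutant, against 3093, 3377 and 2640 FPKM in the wild type. Here mutant replicate 3 lay above wild-type replicate 3. Its log2 fold change of -0.31 (SE 0.08, edgeR adjusted p = 0.00229) was not called by DESeq2 (adjusted p = 0.0558) or by limma on log2(FPKM + 1) (adjusted p = 0.0726).

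ATP synthase makes ATP from the proton gradient, and mtDNA encodes 2 of its membrane subunits on another bicistronic mRNA. MT-ATP8 (positions 8366 to 8572) had 676, 866 and 834 FPKM in the mutant, against 1174, 1400 and 1209 FPKM in the wild type. MT-ATP6 (positions 8527 to 9207), the subunit that forms the proton path, had 1137, 1336 and 1300 FPKM in the mutant, against 1812, 2062 and 1743 FPKM in the wild type. The log2 fold changes were -0.71 (SE 0.08) and -0.61 (SE 0.06), and neither gene's groups overlapped. The reading frames share 46 bases, positions 8527 to 8572, shown here because reads inside them could belong to either gene. Capitals mark the ATG that starts MT-ATP6 and the TAG that ends MT-ATP8.
MT-ATP8 and MT-ATP6 overlap: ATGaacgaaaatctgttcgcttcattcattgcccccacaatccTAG
MT-ATP8 counts were 18.1, 19.7 and 19.5% of those of MT-ATP6 in the mutant, against 19.7, 20.6 and 21.1% in the wild type, with overlap between the groups (exact permutation p = 0.2).

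MT-CYB (positions 14747 to 15887) encodes cytochrome b, the mtDNA subunit of complex III, which moves electrons from ubiquinol to cytochrome c. It had 620, 667 and 700 FPKM in the mutant, against 1059, 1275 and 1118 FPKM in the wild type. The groups were well apart, and the log2 fold change was -0.83 (SE 0.06, edgeR adjusted p = 2.56e-09).

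**Figure D2:**
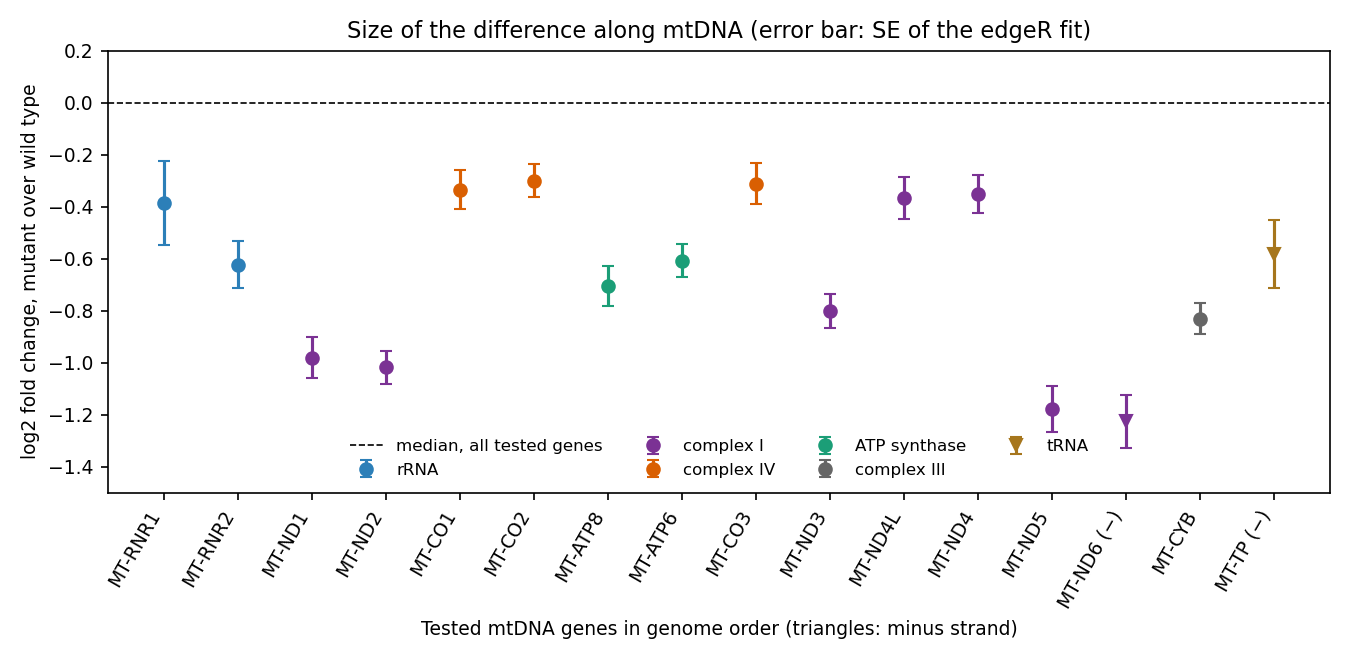
Log2 fold change of mutant over wild type (y axis, error bars: SE of the edgeR fit) for the 16 tested mtDNA genes in genome order, coloured by the complex or RNA class, with triangles for minus-strand genes. All 16 lie below the dashed median of all tested genes, from -0.30 at MT-CO2 to -1.23 at MT-ND6, with no steady trend along the genome.

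The size of the fall did not run in 1 direction along the plus strand. Over the 12 plus-strand coding genes, the log2 fold change and the start position had a Pearson r of 0.01 and a Spearman rho of -0.08. These genes share libraries and precursor RNA and are not independent, so the coefficients are descriptions. Steps between neighbours were large in places: MT-CO1 lay 0.68 above MT-ND2 on the log2 scale, and MT-ND5 lay 0.83 below MT-ND4. Other neighbours were close: MT-CO2 lay 0.03 above MT-CO1, and MT-ND2 differed from MT-ND1 by -0.04. The relation of the fold change to gene length was weak (r = -0.24), and so was that to G+C content (r = 0.14). Percent G alone gave r = 0.52 and rho = 0.56. More abundant mRNAs tended to fall less, with r = 0.63 and rho = 0.68 against the log2 wild-type FPKM. The wild-type values enter both of those measures.

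The unequal falls shifted the balance between complexes within mtDNA. Summed counts of the complex I genes were 59.8, 58.3 and 57.7% of those of the complex IV genes in the mutant libraries, against 76.3, 82.7 and 80.5% in the wild-type libraries. The groups lay far apart relative to their spread, and the log2 ratio differed by -0.45 (mutant mean -0.77 ± 0.03 and wild-type mean -0.33 ± 0.06, SD, n = 3 each; exact permutation p = 0.1, the smallest possible). This ratio is formed within each library and does not depend on the scaling between libraries. Complex IV genes took 49.8 ± 0.292% of all mtDNA counts in the mutant and 42.8 ± 1.00% in the wild type (SD, n = 3 each). Complex I genes took 29.2 ± 0.414% in the mutant and 34.2 ± 0.642% in the wild type (SD, n = 3 each). ATP synthase genes took 7.001 ± 0.283% in the mutant and 7.42 ± 0.141% in the wild type (SD, n = 3 each).

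To ask which genes departed from the mtDNA total, the edgeR fit was repeated with the summed counts of the 37 genes as library size. With that scaling 4 of the 16 genes were called lower and 0 higher, beside a background in which 0.757% of all tested genes were called lower and 67.6% higher. The scaling itself moves genes that did not fall with the mtDNA total upward, so this background is not a chance rate for the mtDNA genes. A value of 0 in this fit means that a gene fell as much as the mtDNA total. The 4 were MT-ND6 (-0.68, SE 0.16, edgeR adjusted p = 4.81e-05), MT-ND5 (-0.64, SE 0.14, adjusted p = 4.29e-05), MT-ND2 (-0.48, SE 0.14, adjusted p = 0.00226) and MT-ND1 (-0.43, SE 0.15, adjusted p = 0.00668). MT-CYB (-0.29) and MT-ND3 (-0.25) did not pass, with adjusted p = 0.0653 and 0.120 in edgeR. Without mutant replicate 1, MT-CYB was called (-0.33, edgeR adjusted p = 0.0375). The 3 MT-CO genes, MT-ND4 and MT-ND4L had positive values of 0.17 to 0.23, also not called. The SE of this fit were larger than before (MT-CO2: 0.14, against 0.06). As shares of mtDNA counts, each of these genes lay higher in every mutant library than in any wild-type library. MT-CO1 took 25.9, 25.8 and 26.5% in the mutant, against 22.9, 22.5 and 22.5% in the wild type. MT-CYB and MT-ND3 shares lay lower without overlap. Shares are parts of a fixed total, so a fall in some raises others.

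MT-ND6 is the single protein-coding gene on the minus strand (positions 14149 to 14673), and encodes a membrane subunit of complex I. It is transcribed apart from the other mRNAs, from the opposite strand. Its level was 220, 276 and 310 FPKM in the mutant libraries, against 582, 723 and 534 FPKM in the wild-type libraries, with no overlap. It had the most negative log2 fold change of the tested mtDNA genes (-1.23, SE 0.10, edgeR adjusted p = 2.03e-08). MT-ND6 counts were 0.990, 1.06 and 1.15% of those of the 12 plus-strand mRNAs in the mutant, against 1.72, 1.83 and 1.65% in the wild type, again without overlap (exact permutation p = 0.1, the smallest possible).

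The value of MT-ND6 carries a limit of strand. MT-ND5 ends at position 14148 and MT-ND6 begins at 14149 on the other strand, with 0 bases between them, and MT-ND5 RNA is known to extend past its reading frame, antisense to MT-ND6. The labels' library protocol describes no step that marks strand, and the sources used here do not give the strand setting of the counting. Reads of MT-ND6 and of RNA antisense to it cannot be told apart. As for the rRNAs, the counts over MT-ND6 reflect only RNA that was carried through poly(A) selection. MT-ND6 counts were 19.8, 20.4 and 22.2% of those of MT-ND5 in the mutant libraries, against 21.4, 21.8 and 21.3% in the wild-type libraries. The groups overlapped, with a log2 difference of -0.05 (exact permutation p = 0.4). The ratio to all plus-strand mRNAs separated the groups, and the ratio to MT-ND5 did not.

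**Figure D3:**
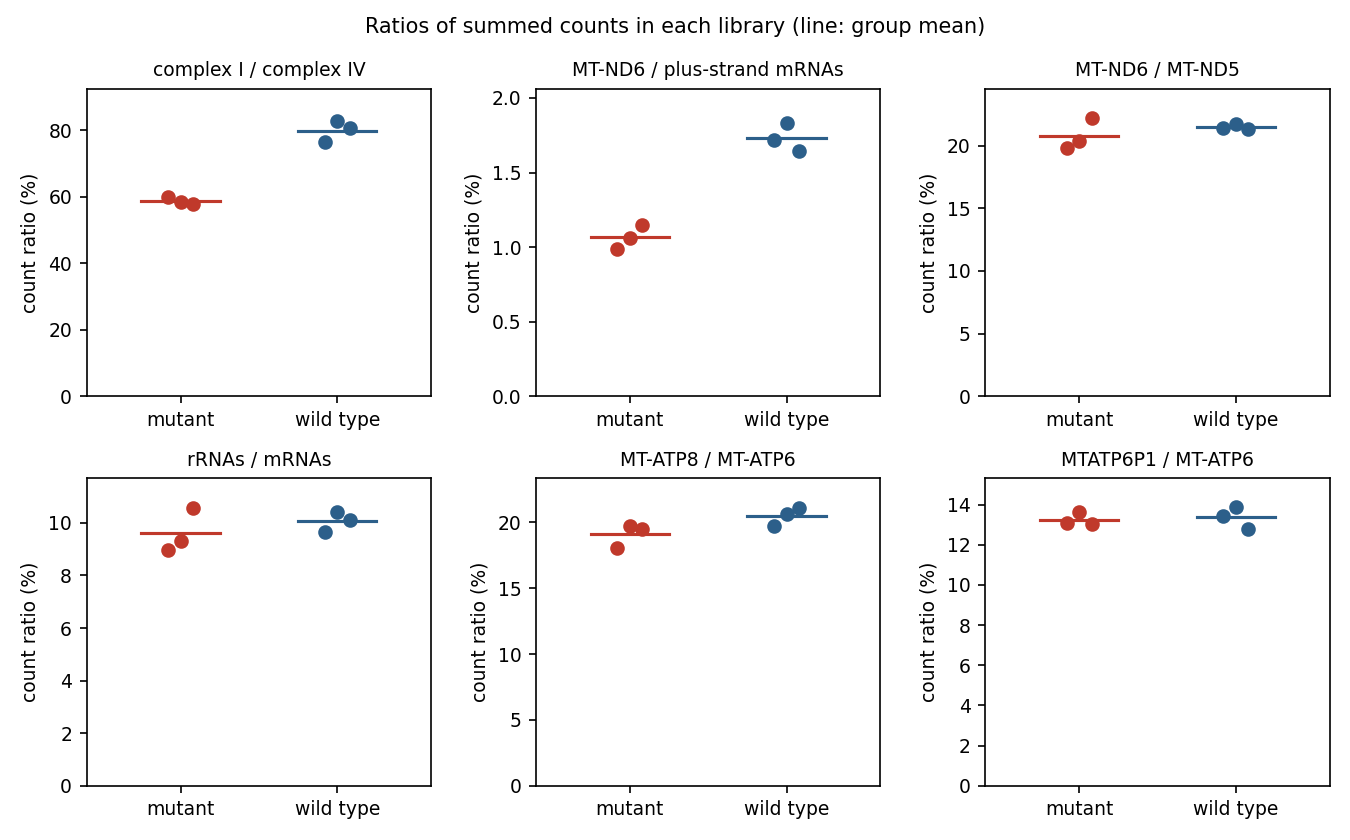
Ratios of summed counts in percent for each library (points), with group means (lines) and mutant to the left of wild type; every axis starts at 0. The ratios of complex I to complex IV and of MT-ND6 to the plus-strand mRNAs separate the groups, whereas those of MT-ND6 to MT-ND5, rRNA to mRNA, MT-ATP8 to MT-ATP6 and MTATP6P1 to MT-ATP6 overlap.

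The rRNA genes lie first on the plus strand, and in these libraries their values reflect only RNA that was carried through poly(A) selection. MT-RNR2 (positions 1671 to 3229), the large rRNA, had 606, 734 and 830 FPKM in the mutant, against 995, 1254 and 1016 FPKM in the wild type. Its groups did not overlap, and the log2 fold change was -0.62 (SE 0.09, edgeR adjusted p = 1.19e-05). MT-RNR1 (positions 648 to 1601), the small rRNA, had 115, 149 and 227 FPKM in the mutant, against 203, 251 and 172 FPKM in the wild type. Mutant replicate 3 lay above wild-type replicates 1 and 3, so these groups overlapped. The log2 fold change of MT-RNR1 was -0.39 (SE 0.16, edgeR adjusted p = 0.0478). The call was lost in 9 of 15 alternative settings, among them DESeq2 (adjusted p = 0.330), limma on log2(FPKM + 1) (adjusted p = 0.200) and edgeR without mutant replicate 1 (-0.18, adjusted p = 0.315) or wild-type replicate 2 (-0.23, adjusted p = 0.237). In edgeR without mutant replicate 3 the change was -0.69 (adjusted p = 1.15e-04).

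Set against the mRNAs, the rRNAs showed no separation of the groups. Summed rRNA counts were 8.97, 9.30 and 10.6% of those of the 13 coding genes in the mutant, against 9.66, 10.4 and 10.1% in the wild type. The ranges overlapped, and the log2 difference was -0.07 (exact permutation p = 0.5). The ratio of MT-RNR1 to MT-RNR2 was 11.6, 12.4 and 16.8% in the mutant, against 12.5, 12.3 and 10.4% in the wild type, with overlap and the highest value in mutant replicate 3 (exact permutation p = 0.5).

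Transfer RNAs were almost absent from the counts. Of the 22 tRNA genes, 18 had 0 counts in all 6 libraries, 3 had a sum of 1 to 6 counts over the 6 libraries, and 21 were not tested. A count of 0 allows up to 3 counts in a library of this depth, a limit that covers counting error only. As background, short and modified RNA without a poly(A) tail is poorly captured by this kind of library, so these zeros do not measure the tRNAs of the cells.

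MT-TP, the tRNA for proline, was the exception. It lies on the minus strand at positions 15956 to 16023, next to the control region of mtDNA, and had 255, 269 and 300 counts in the mutant libraries, against 351, 447 and 403 counts in the wild-type libraries. The groups did not overlap, and the log2 fold change was -0.58 (SE 0.13, edgeR adjusted p = 9.44e-04). Its 68 bases from GENCODE are given because it is the one tRNA that carries a measured value, with the anticodon in capitals.
MT-TP: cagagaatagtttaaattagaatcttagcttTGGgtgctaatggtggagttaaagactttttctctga
Mature tRNA and longer RNA from either strand over this gene cannot be told apart in these counts. As a share of the coding genes, tRNA counts were 0.107, 0.116 and 0.131% in the mutant, against 0.109, 0.126 and 0.132% in the wild type, which overlapped (exact permutation p = 0.7).

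Copies of mtDNA in the nuclear genome can take reads from mtDNA genes. The table held 402 nuclear pseudogenes named after mtDNA coding or rRNA genes, of which 46 had any count, and 3 of them held 98.6% of all pseudogene counts. These 3 lie close together on chromosome 1 (plus strand) and are near-identical to their mtDNA counterparts. MTATP6P1 (positions 633696 to 634376) matched MT-ATP6 at 98.5% of 681 aligned bases, MTND2P28 (629640 to 630683) matched MT-ND2 at 98.4% of 1042, and MTCO1P12 (631074 to 632616) matched MT-CO1 at 98.7% of 1542. The longest stretches without a difference were 141, 266 and 245 bases. The 60 bases of MT-ATP6 and MTATP6P1 that differ most are shown to make plain how few bases tell the copies apart, with the 3 differing bases in capitals (mitochondrial positions 8642 to 8701 and chromosome 1 positions 633811 to 633870).
MT-ATP6: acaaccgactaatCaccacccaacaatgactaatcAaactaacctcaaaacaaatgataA
MTATP6P1: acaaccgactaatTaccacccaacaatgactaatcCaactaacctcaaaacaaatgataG

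The pseudogenes differed between the groups by amounts close to those of their mtDNA counterparts. MTATP6P1 had 2060, 2086 and 1850 counts in the mutant, against 2969, 3286 and 2699 counts in the wild type, a log2 fold change of -0.62 (SE 0.08) beside -0.61 for MT-ATP6. MTND2P28 had 479, 471 and 514 counts in the mutant, against 944, 1096 and 924 counts in the wild type, a log2 fold change of -1.06 (SE 0.10) beside -1.02 for MT-ND2. MTCO1P12 had 102, 111 and 124 counts in the mutant, against 143, 152 and 132 counts in the wild type. Its log2 fold change of -0.38 (SE 0.16) stood beside -0.33 for MT-CO1, and its call was lost in 8 of 14 alternative settings (edgeR adjusted p = 0.0460). MTATP6P1 counts were 13.1, 13.6 and 13.05% of those of MT-ATP6 in the mutant, against 13.4, 13.9 and 12.8% in the wild type, so the ratio did not separate the groups (exact permutation p = 0.9). MTND2P28 counts were 3.57, 3.89 and 4.27% of those of MT-ND2 in the mutant, against 4.03, 4.13 and 3.89% in the wild type (exact permutation p = 0.6). Which of these reads come from mtDNA cannot be told from the counts.

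Nuclear genes of mtDNA expression and maintenance were also lower more often than higher. Of 49 listed genes 48 were tested, and 29 (60.4%) fell, 2 rose and 17 did not pass, beside 28.7% of all tested genes called lower. Their median log2 fold change was -0.23. Of the 10 transcription genes 8 fell. They included TFAM, which packages mtDNA and starts its transcription, at 40.9 ± 1.77 FPKM in the mutant and 55.2 ± 1.21 FPKM in the wild type (SD, n = 3 each; log2 fold change -0.46), and POLRMT, the mitochondrial RNA polymerase (-0.26). TFB1M, an rRNA methyltransferase counted in that role, rose by 0.41. All 4 genes of RNA decay fell, among them SUPV3L1, the helicase of the mitochondrial degradosome (-0.72), and GRSF1, an RNA-binding protein of RNA granules (-0.45).

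Of the genes for RNA stability and polyadenylation, 3 of 5 (60%) fell, with a median log2 fold change of -0.36. For processing of the primary transcript 3 of 8 (37.5%) fell (median -0.10), and in the FASTK family 3 of 6 (50%) fell (median -0.08). In each of these roles 0 rose. Among all tested genes 28.7% were called lower and 29.4% higher. LRPPRC, which binds and stabilises mitochondrial mRNAs, had 13.6 ± 0.155 FPKM in the mutant and 12.5 ± 0.283 FPKM in the wild type (SD, n = 3 each) and was not called (log2 fold change 0.09, edgeR adjusted p = 0.0514), while 6 of 15 alternative settings called it higher. Its partner SLIRP fell by 0.60 (SE 0.08). MTPAP, the polymerase that adds the poly(A) tails, had 4.08 ± 0.260 FPKM in the mutant and 7.67 ± 0.578 FPKM in the wild type (SD, n = 3 each; log2 fold change -0.94, SE 0.07). FASTKD5, needed to cut precursors where no tRNA marks the boundary, had 4.73 ± 0.0833 FPKM in the mutant and 11.5 ± 0.420 FPKM in the wild type (SD, n = 3 each; log2 fold change -1.32, SE 0.06). Of the other 5 FASTK family genes, 2 fell and 3 did not pass. Of 15 tested genes of replication and maintenance, 8 (53.3%) fell, among them TWNK, the mtDNA helicase (-0.80). PRIMPOL, a primase-polymerase of that role, rose by 0.88 (named after its value was seen, as was TFB1M).

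Several of these genes lie on chromosomes where more genes fell than rose. TFAM, SUPV3L1, MTPAP and TWNK are on chromosome 10, where 65.0% of tested genes fell and 8.94% rose (median log2 fold change -0.36). FASTKD5 is on chromosome 20, where 43.8% fell and 23.4% rose (median -0.13). On chromosome 22, 41.7% fell and 16.5% rose (median -0.16). Chromosome 16 went the other way, where 62.6% of tested genes rose and 5.71% fell (median 0.29). All 7 tested list genes on chromosomes 10, 16, 20 or 22 fell, and each of them lies on chromosome 10 or 20. Of the 41 on other chromosomes, 22 (53.7%) fell and 2 rose, with a median of -0.18, beside 27.4% lower among all tested genes outside those 4 chromosomes. The part of these chromosomes in the mtDNA values was not tested.

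**Figure D4:**
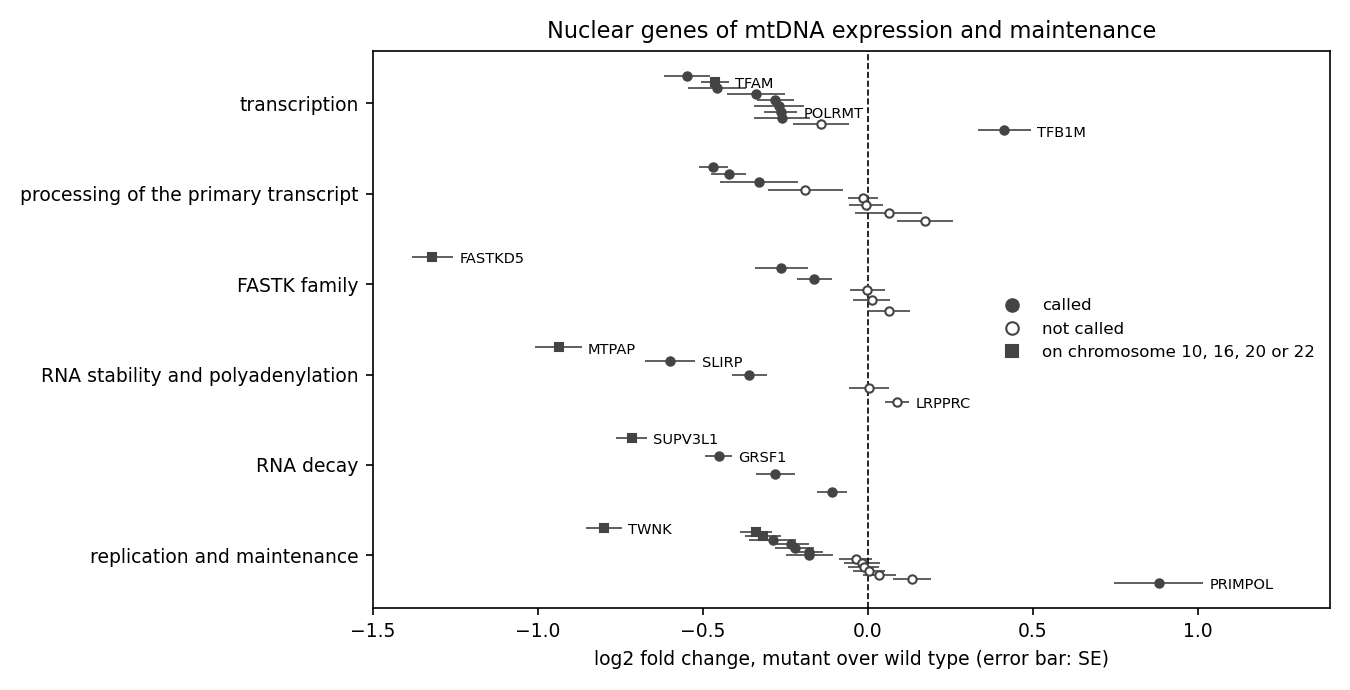
Log2 fold change of mutant over wild type (x axis, error bars: SE) for the 48 tested nuclear genes of mtDNA expression and maintenance, in rows by role. Filled symbols were called, open symbols were not, and squares mark genes on chromosomes 10, 16, 20 or 22. FASTKD5 lies farthest to the left at -1.32, and PRIMPOL farthest to the right at 0.88.

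The nuclear subunits of the same complexes had smaller median changes than the mtDNA subunits. Of 72 tested genes, 27 (37.5%) fell, 5 rose and 40 did not pass, with a median log2 fold change of -0.10, beside 28.7% lower and 29.4% higher among all tested genes. The split moved with scaling and filter: by library totals 22 fell and 8 rose. At a mean FPKM of at least 5, 21 fell and 10 rose, and with no filter 33 fell and 2 rose. Outside chromosomes 10, 16, 20 and 22, 23 of 63 (36.5%) fell, beside 27.4% of all tested genes there. In complex I, 15 of 37 nuclear genes (40.5%) fell and 3 rose (median -0.14), beside a median of -0.98 for the 7 mtDNA genes. In complex IV, 3 of 11 (27.3%) fell and 1 rose (median 0.01), beside -0.31 for the 3 mtDNA genes. In complex III, 2 of 9 (22.2%) fell and 1 rose, and of 15 ATP synthase genes 7 (46.7%) fell and 0 rose. The complex III and IV shares thus lay below the share of all tested genes called lower. The smallest adjusted p among called genes belonged to ATP5F1C, a catalytic-core subunit of ATP synthase (-0.52), UQCRC2 of complex III (0.46), COX4I1 of complex IV (0.40), and NDUFA6 (-0.50), NDUFB9 (-0.35) and NDUFB8 (-0.39) of complex I. Of these 6, NDUFB9 alone lies outside chromosomes 10, 16 and 22. UQCRC2 and COX4I1, which rose, are on chromosome 16, where 62.6% of tested genes rose and 5.71% fell. ATP5F1C and NDUFB8, which fell, are on chromosome 10, and NDUFA6, which fell, is on chromosome 22. The part of these chromosomes was not tested.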

How the data were processed

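Per the file headers, the authors deposited 1 count column and 1 FPKM column for each of 6 libraries, with gene lengths and coordinates. Per the submitters' processing notes, cutadapt, HISAT2 2.0.1, HTSeq and GRCh38 were used; the sources used here do not give the annotation release or strand setting. The deposited FPKM equal counts scaled by gene length and by total assigned counts within 0.011 for 100% of values. Groups came from the sample titles.

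Library sizes were adjusted by the trimmed mean of M-values (TMM), and counts were tested with edgeR 4.0.16 (quasi-likelihood F-test, two-sided, genotype as the single factor) on genes whose FPKM averaged at least 1, with Benjamini-Hochberg adjustment over all 12550 tested genes and a threshold of 0.05. SE is the log2 fold change divided by the square root of F. The fit was also run on simulated counts in which few genes changed and all genes had a common dispersion. In the data themselves 58% of tested genes were called, so that run does not measure the error rate here. Ratios and shares were compared by exact two-sided permutation tests; 12 such comparisons were made, with adjusted p from 0.4 to 0.9. Libraries of a group differed beyond sampling noise (chi-square per degree of freedom at least 2.50). Sequences are GENCODE release 29 transcripts, aligned with Biopython 1.88.

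The members and lists were chosen with earlier results of these data known, and list medians and counts carry no set test. All 37 genes are members; tRNA genes were named at a mean of at least 20 counts in the higher group, pseudogenes at a mean of at least 100 counts, and list genes by the 6 smallest adjusted p in each list, with TFAM, POLRMT, LRPPRC, SLIRP and FASTKD5 in any case. TENT2 in the stability role is mainly cytoplasmic. Alternatives were other scalings, filters, DESeq2 1.42.0, limma 3.58.1, pseudocounts, leaving out each library, and a replicate block. The fit relative to the mtDNA total, the ratios of single genes and the counts without chromosomes 10, 16, 20 and 22 were chosen after seeing the data.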

Additional observations from a re-analysis of the deposited data

How the results depend on the processing

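All 13 coding genes were called lower in each edgeR alternative, and 12 (without MT-CO3) in DESeq2 and in limma with either pseudocount; rRNA and tRNA calls were 2 or 3. The count over all genes was 7284, and 4597 with a mean FPKM of at least 5, where fewer genes were tested. With each library left out in turn it was 6363 to 7450, with 13 coding genes, 2 to 3 rRNA and tRNA genes, 27 to 32 genes of mtDNA expression and 27 to 35 nuclear respiratory genes called. The mutant minus wild-type difference was then -0.70 to -0.48 percentage points for the mtDNA share, -0.48 to -0.42 (log2) for complex I over complex IV, -0.76 to -0.65 for MT-ND6 over plus-strand mRNAs, -0.10 to -0.02 for MT-ND6 over MT-ND5, -0.14 to -0.02 for rRNA over mRNA and -0.13 to 0.019 for tRNA over mRNA.

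Directions turned for values that were not called. With the median of log2(FPKM + 1) in place of sums, rRNA over mRNA was 0.28, tRNA over mRNA 0.77, where most tRNA genes are at 0, and MTCO1P12 over MT-CO1 0.014. Leaving out each library in turn, tRNA over mRNA spanned -0.13 to 0.019, MT-ND4L over MT-ND4 -0.060 to 0.011, MTATP6P1 over MT-ATP6 -0.043 to 0.015, MTND2P28 over MT-ND2 -0.11 to 0.021 and MTCO1P12 over MT-CO1 -0.12 to 0.024. Within mtDNA, MT-TP then spanned -0.12 to 0.019 and MT-RNR1 -0.087 to 0.27, the lowest without mutant replicate 3. The cause was not tested.

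The labels do not say that equal replicate numbers mark a shared origin, and same-numbered libraries did not deviate together (r = -0.04 to -0.0014 over genes). With the replicate block 7069 genes, 13 coding genes and 3 rRNA and tRNA genes were called, 30 and 28 in the nuclear lists, and the mtDNA share differed by -0.61 (exact sign-flip p = 0.25, the smallest possible).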
